A study of Homo sapiens with 30 samples.

Results

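A set of 10 human genes tied to the mesenchymal cell state was followed through 30 RNA-seq libraries: VIM (vimentin), SPARC, LGALS1, NID1, CDH2, ZEB1, ZEB2, SNAI1, SNAI2 and TWIST1. The genes were named as markers or drivers of that state, with earlier results of these data known, and matched by Ensembl identifier. They are 10 of the 60664 genes in the count tables. Epithelial cells hold together through E-cadherin junctions and sit on a basement membrane, and in the epithelial-to-mesenchymal transition (EMT) they give up these contacts and take on a motile, matrix-producing state. The transition is driven by transcription factors of the ZEB, SNAIL and TWIST families, which repress epithelial genes such as CDH1, the gene of E-cadherin. Vimentin is the intermediate filament protein of mesenchymal cells, SPARC is a secreted collagen-binding matrix protein, galectin-1 (LGALS1) is a secreted lectin, nidogen-1 (NID1) links laminin to collagen IV in basement membranes, and CDH2 encodes N-cadherin.

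The study asked how loss of DNA methylation changes CTCF binding, chromatin loops and gene expression. Its RNA libraries form 10 groups of 3 separate cultures. Wild-type K562 cells (a chronic myeloid leukemia line) and wild-type HCT116 cells (a colorectal carcinoma line) received an inhibitor of the maintenance DNA methyltransferase DNMT1 (DNMT1i, 10 µM) or 0.1% DMSO for 3 days. HT-CTCF cells, HCT116 cells with a HaloTag knocked into both copies of CTCF, were given the same DNMT1i dose or 0.1% DMSO for 1 day. HaloPROTAC3, which brings about degradation of HaloTag fusions, was added to 2 of the 4 HT-CTCF groups as a pretreatment and kept on during the DNMT1i or DMSO treatment, while the other groups had DMSO as pretreatment. K562 speckle knock-in cells carry a dTAG degron on SON and SRRM2, the scaffold proteins of nuclear speckles, and received dTAG-13 (500 nM) or 0.1% DMSO for 6 hours. The knock-in lines were grown from single cells, so each is 1 clone, and both groups of every HT-CTCF or speckle comparison carry the tags.

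The promoters of 4 of these genes are shown because the treatment acts on methylation of cytosines in CpG pairs. Each sequence is 300 bases of hg38 from 250 bases before the start to 50 bases from it, written 5′ to 3′ on the gene's own strand with CpG pairs in capitals. RefSeq windows were found for 6 of the 9 members looked up, and the windows of SPARC, NID1 and ZEB2 are from RefSeq (hg38). The RefSeq window of VIM lies 1035 bases upstream of the exon part where its read-rich bins begin, so the hg38 sequence at that place is shown for VIM (chr10:17229026-17229325, plus strand, 24 CpG). The others are SPARC (chr5:151686866-151687165, minus strand, 11 CpG), NID1 (chr1:236065041-236065340, minus strand, 36 CpG) and ZEB2 (chr2:144520070-144520369, minus strand, 14 CpG). No methylation values were used here, so the sequences say where CpG pairs lie and not which of them are methylated.
VIM: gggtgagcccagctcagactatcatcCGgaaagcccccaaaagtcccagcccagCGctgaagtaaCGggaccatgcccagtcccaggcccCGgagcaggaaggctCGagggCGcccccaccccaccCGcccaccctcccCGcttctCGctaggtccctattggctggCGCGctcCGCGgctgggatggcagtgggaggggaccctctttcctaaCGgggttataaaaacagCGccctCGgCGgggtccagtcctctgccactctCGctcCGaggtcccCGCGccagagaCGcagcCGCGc
SPARC: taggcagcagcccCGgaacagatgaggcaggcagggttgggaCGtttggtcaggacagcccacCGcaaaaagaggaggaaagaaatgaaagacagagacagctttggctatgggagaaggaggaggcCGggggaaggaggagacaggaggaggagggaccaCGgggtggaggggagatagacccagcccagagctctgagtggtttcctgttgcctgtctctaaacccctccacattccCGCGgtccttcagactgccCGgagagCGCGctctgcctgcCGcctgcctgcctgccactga
NID1: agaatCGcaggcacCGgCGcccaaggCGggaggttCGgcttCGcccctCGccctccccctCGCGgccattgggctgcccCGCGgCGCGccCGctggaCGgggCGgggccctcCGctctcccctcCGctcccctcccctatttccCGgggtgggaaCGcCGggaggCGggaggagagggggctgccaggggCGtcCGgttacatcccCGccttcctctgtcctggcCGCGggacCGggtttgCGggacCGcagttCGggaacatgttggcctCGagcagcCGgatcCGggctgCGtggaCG
ZEB2: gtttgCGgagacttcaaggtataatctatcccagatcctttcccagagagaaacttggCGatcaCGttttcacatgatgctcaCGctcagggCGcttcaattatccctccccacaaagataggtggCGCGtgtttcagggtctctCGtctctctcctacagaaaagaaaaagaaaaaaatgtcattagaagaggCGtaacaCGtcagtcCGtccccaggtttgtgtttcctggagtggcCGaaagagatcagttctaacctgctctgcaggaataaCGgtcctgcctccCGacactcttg

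The windows differ in CpG content. Of 35116 RefSeq windows of the same length, with a median of 14 CpG, 12.7% held at least as many CpG as NID1, 33.9% as many as VIM, 50.3% as many as ZEB2 and 54.7% as many as SPARC. The motif CAGGTG, an E-box that ZEB and SNAIL proteins are known to bind, was searched on both strands (CAGGTG or CACCTG) and was present in 20.6% of all windows. It was in none of the 4 windows above, and in 2 of the ZEB1 windows, with 1 match and 3 matches.

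Wild-type and speckle libraries held 16173008 to 21228534 counts assigned to genes, and the HT-CTCF libraries 4243092 to 9407430. Levels are given as CPM, the usual depth-scaled count, after TMM scaling, which corrects library totals for differences in composition. A gene is said to rise or fall where edgeR's quasi-likelihood test gave a Benjamini-Hochberg adjusted p below 0.05 over all genes tested in that comparison, with no limit on the size of the change. Errors of group means are standard deviations (SD, n = 3), and errors of log2 fold changes are standard errors (SE). The summed level of 10 K562 markers was 529 to 644 CPM in K562 and speckle libraries, and 1.19 to 5.28 CPM in HCT116 and HT-CTCF libraries. That of 10 HCT116 markers was 486 to 1053 CPM in K562 and speckle libraries, and 2996 to 4207 CPM in HCT116 and HT-CTCF libraries. Both sums matched the labels, but not every marker did. Of the HCT116 markers, 6 averaged 1 CPM or more in HCT116 DMSO libraries. The K562 marker HBE1 averaged 0.27 CPM in K562 DMSO libraries and 0.37 CPM in HCT116 DMSO libraries. One library stood apart from its group: K562 DMSO replicate 3 differed from replicates 1 and 2 by chi-square values of 31.38 and 29.7 per degree of freedom over the genes compared, against 2.48 between replicates 1 and 2 and 1.79 to 14.5 for pairs in the other groups. Tests of members that rest on it are given with and without it, as are the counts of several gene lists. Group means, marker counts and the fold changes of listed genes are given with it only. In bulk RNA, more cells expressing a gene and more RNA per cell cannot be told apart.

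Without inhibitor, the lines differed in which of these genes they expressed. K562 cells had high VIM and ZEB2 and moderate ZEB1, whereas HCT116 cells had little VIM, next to no ZEB2 and more LGALS1, SPARC, SNAI2 and TWIST1 than K562. VIM was at 2688, 2634 and 2969 CPM in K562 DMSO libraries, against 9.84, 9.66 and 9.6 CPM in HCT116 DMSO libraries. ZEB2, a zinc finger repressor with a known role in blood cell development, was at 156, 165 and 163 CPM in K562 and at 0.18, 0 and 0.114 CPM in HCT116. The lines did not overlap in either gene, and edgeR gave log2 differences (K562 minus HCT116) of 8.02 ± 0.11 for VIM (adjusted p = 7.49e-21) and 10.47 ± 0.20 for ZEB2 (adjusted p = 1.24e-19).

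ZEB1, the close relative of ZEB2, averaged 43.7 ± 3.45 CPM in K562 DMSO cells and 5.39 ± 0.614 CPM in HCT116 DMSO cells, a log2 difference of 2.88 ± 0.12 (adjusted p = 1.98e-14). SNAI1, a repressor of CDH1, averaged 26.3 ± 3.26 CPM in K562 and 14.1 ± 0.827 CPM in HCT116 (log2 difference 0.76 ± 0.12, adjusted p = 6.2e-06). Both were thus higher in K562. LGALS1 was the most abundant member in HCT116 DMSO cells, also per kilobase of exon (304 CPM per kilobase), and averaged 109.9 ± 23.5 CPM in K562 and 325 ± 26.6 CPM in HCT116 (log2 difference -1.69 ± 0.13, adjusted p = 4.42e-10). SPARC averaged 0.6 ± 0.0557 CPM in K562 and 1.97 ± 0.37 CPM in HCT116, a log2 difference of -1.84 ± 0.29 (adjusted p = 1e-05).

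SNAI2 averaged 0.0987 ± 0.0545 CPM in K562 and 0.407 ± 0.150 CPM in HCT116 (log2 difference -2.04 ± 0.59, adjusted p = 0.00428). TWIST1 averaged 0.658 ± 0.0956 CPM in K562 and 1.03 ± 0.218 CPM in HCT116 (log2 difference -0.76 ± 0.29, adjusted p = 0.0218). The TWIST1 call was lost without K562 DMSO replicate 3 (adjusted p = 0.0767) and without HCT116 DMSO replicate 2 (adjusted p = 0.137), and with no filter on low counts (adjusted p = 0.0523). NID1 (1 count in K562, 0 in HCT116) and CDH2 (2 counts in K562, 1 in HCT116) were at or under a floor of 3 counts over the group in both lines, so no difference was detectable at this depth. Of the 10 members, 4 were higher and 4 lower in K562, while 76.5% of all 17237 genes tested differed between the lines (36.9% higher and 39.6% lower in K562), so a difference between these lines was the common case for any gene. Without K562 DMSO replicate 3, 7 members differed (VIM by 7.96, ZEB2 by 10.45, ZEB1 by 2.82, SNAI1 by 0.65, LGALS1 by -1.89, SPARC by -1.80 and SNAI2 by -1.86 on the log2 scale), and 76% of all genes passed.

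**Figure D1:**
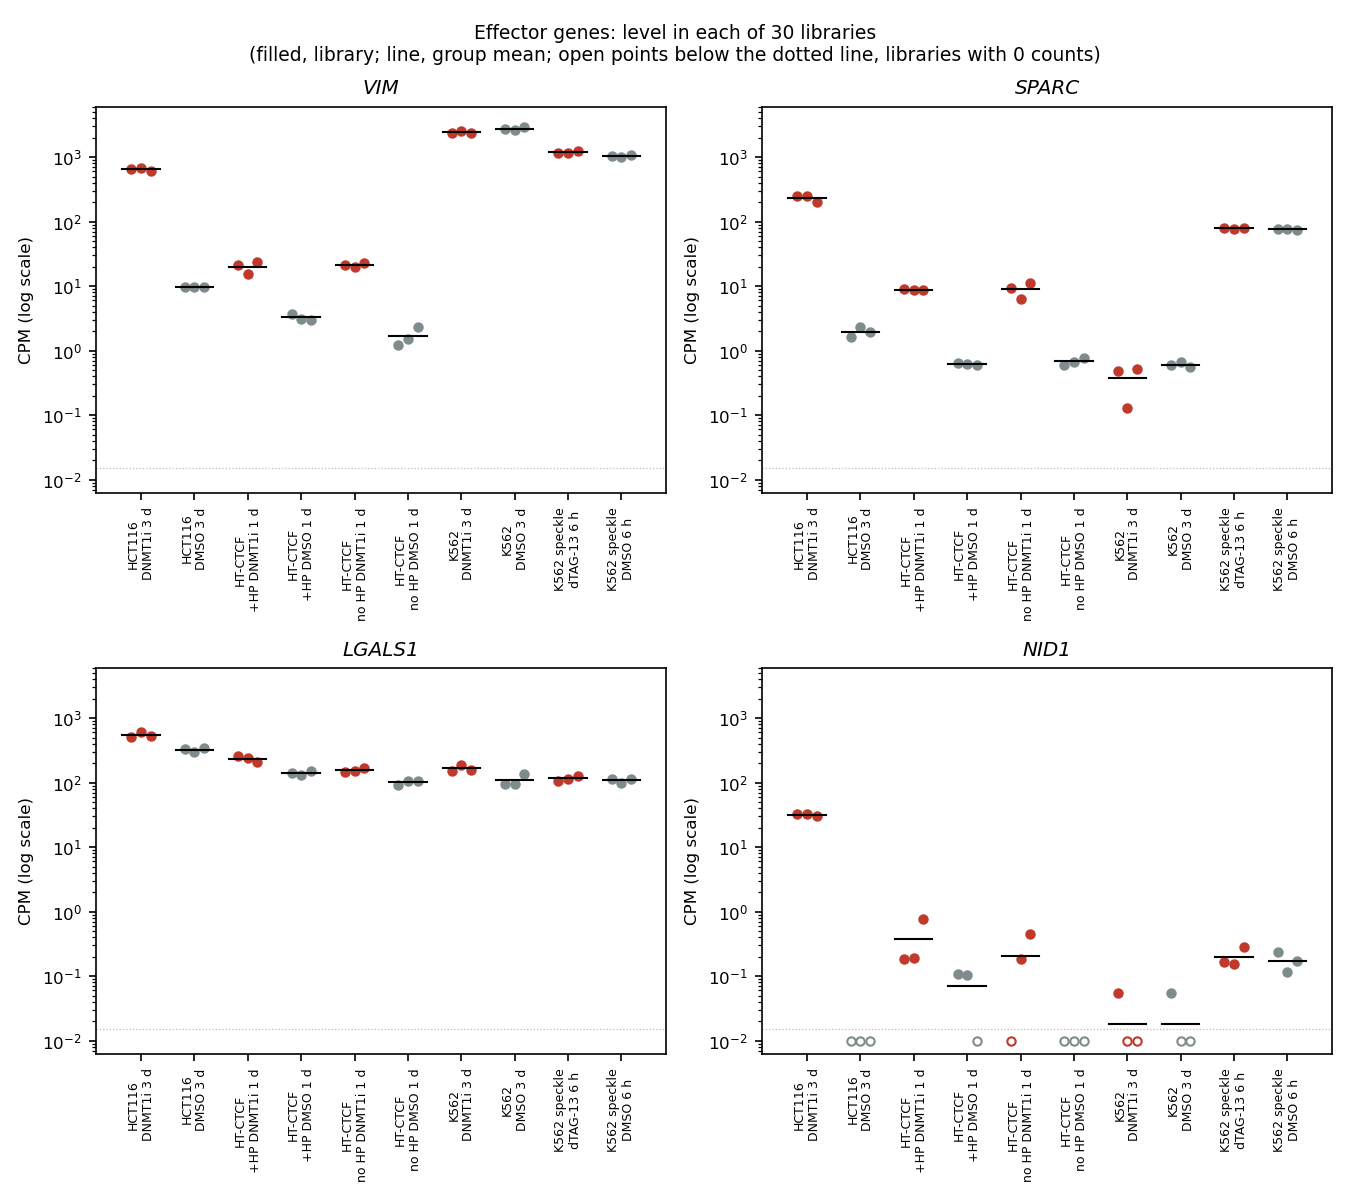
Level of VIM, SPARC, LGALS1 and NID1 in CPM (log axis) in each of the 30 libraries, 1 point per library and a bar at the mean of each group of 3; libraries with 0 counts are drawn at the bottom. The 3 HCT116 DNMT1i libraries lie above the 3 HCT116 DMSO libraries in all 4 panels, and SPARC is high in the speckle knock-in clone and below 1 CPM in wild-type K562.

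In HCT116 cells, 3 days of DNMT1i raised 9 of the 10 members, among them LGALS1 by 1.74-fold, VIM by 67.8-fold, SPARC by 119.8-fold and NID1 by at least 550.3-fold. The structural genes VIM, SPARC, NID1 and CDH2 changed most and the factors ZEB1 and SNAI1 less, while SNAI2 did not pass the test. All 10 were tested and none fell, but NID1, CDH2 and ZEB2 held only 0, 1 and 5 counts with DMSO. They were tested through their DNMT1i counts (1920, 240 and 85), so they could only be called higher. They also count in the members' median log2 fold change, which was 3.28, against 0.02 over all 15885 genes tested. NID1 at its lower bound leaves that median where it is. The background was large: 61.6% of those genes passed the test, 33.8% higher and 27.9% lower.

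VIM was at 650.1, 675 and 615 CPM in DNMT1i libraries, against 9.84, 9.66 and 9.6 CPM in DMSO libraries. The groups were far apart relative to their spread, and VIM rose 67.8-fold (log2 fold change 6.08 ± 0.09, adjusted p = 1.69e-20). The treated level stayed below that of untreated K562 cells, where the lowest library had 2634 CPM. SPARC, which binds collagen and modulates cell contact with the matrix, was at 248, 249 and 204 CPM with DNMT1i, against 1.62, 2.36 and 1.94 CPM with DMSO. It rose 119.8-fold (log2 fold change 6.90 ± 0.13, adjusted p = 3.66e-19), with no overlap between groups.

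NID1 had reads only in the treated libraries. It was at 33.2, 32.7 and 30.2 CPM in DNMT1i libraries (583, 744 and 593 counts), and 0 in all 3 DMSO libraries. Against a floor of 3 counts over the DMSO group, NID1 was at least 550.3-fold higher (adjusted p = 7.83e-16). CDH2 was at 3.93, 3.64 and 4.48 CPM with DNMT1i (240 counts in all), against 0.06, 0 and 0 CPM with DMSO (1 count in all). The CDH2 ratio was 206, with a 95% counting interval of 36.7 to 8185 (adjusted p = 5.64e-11), so its size is known only roughly. LGALS1 was already abundant and changed least among the members that passed: it was at 519, 617 and 529 CPM with DNMT1i, against 333, 295 and 346 CPM with DMSO (log2 fold change 0.80 ± 0.08, adjusted p = 1.03e-07).

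The EMT transcription factors TWIST1, a basic helix-loop-helix protein of embryonic mesoderm, ZEB2, ZEB1 and SNAI1 rose in HCT116 cells. TWIST1 was at 7.63, 6.76 and 6.32 CPM in DNMT1i libraries, against 0.84, 1.26 and 0.971 CPM in DMSO libraries (log2 fold change 2.76 ± 0.20, adjusted p = 3.02e-10). ZEB2 was at 1.65, 1.27 and 1.38 CPM with DNMT1i, against 0.18, 0 and 0.114 CPM with DMSO (log2 fold change 3.81 ± 0.47, adjusted p = 7.92e-07). The treated ZEB2 level thus rested on 85 counts over 3 libraries, and was far below the 161 ± 4.63 CPM of untreated K562 cells. ZEB1 was at 13.2, 11.4 and 12.1 CPM with DNMT1i, against 5.4, 4.77 and 6 CPM with DMSO (log2 fold change 1.20 ± 0.13, adjusted p = 1.38e-07).

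SNAI1 was at 23.9, 26.7 and 23.1 CPM with DNMT1i, against 14.8, 13.2 and 14.4 CPM with DMSO (log2 fold change 0.82 ± 0.10, adjusted p = 7.87e-07). SNAI1 has a near-identical pseudogene, SNAI1P1, which had 1657 counts in HCT116 DNMT1i libraries and 2 counts in HCT116 DMSO libraries, a ratio of 712 (95% counting interval 197 to 5888). How reads were shared between these copies is not known, so the SNAI1 value is uncertain. SNAI2, also called SLUG, was at 0.57, 0.571 and 0.764 CPM with DNMT1i, against 0.36, 0.575 and 0.286 CPM with DMSO, and the groups overlapped (log2 fold change 0.65 ± 0.37, adjusted p = 0.137, 95% interval -0.13 to 1.44). Its treated level rested on 38 counts over 3 libraries.

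**Figure D2:**
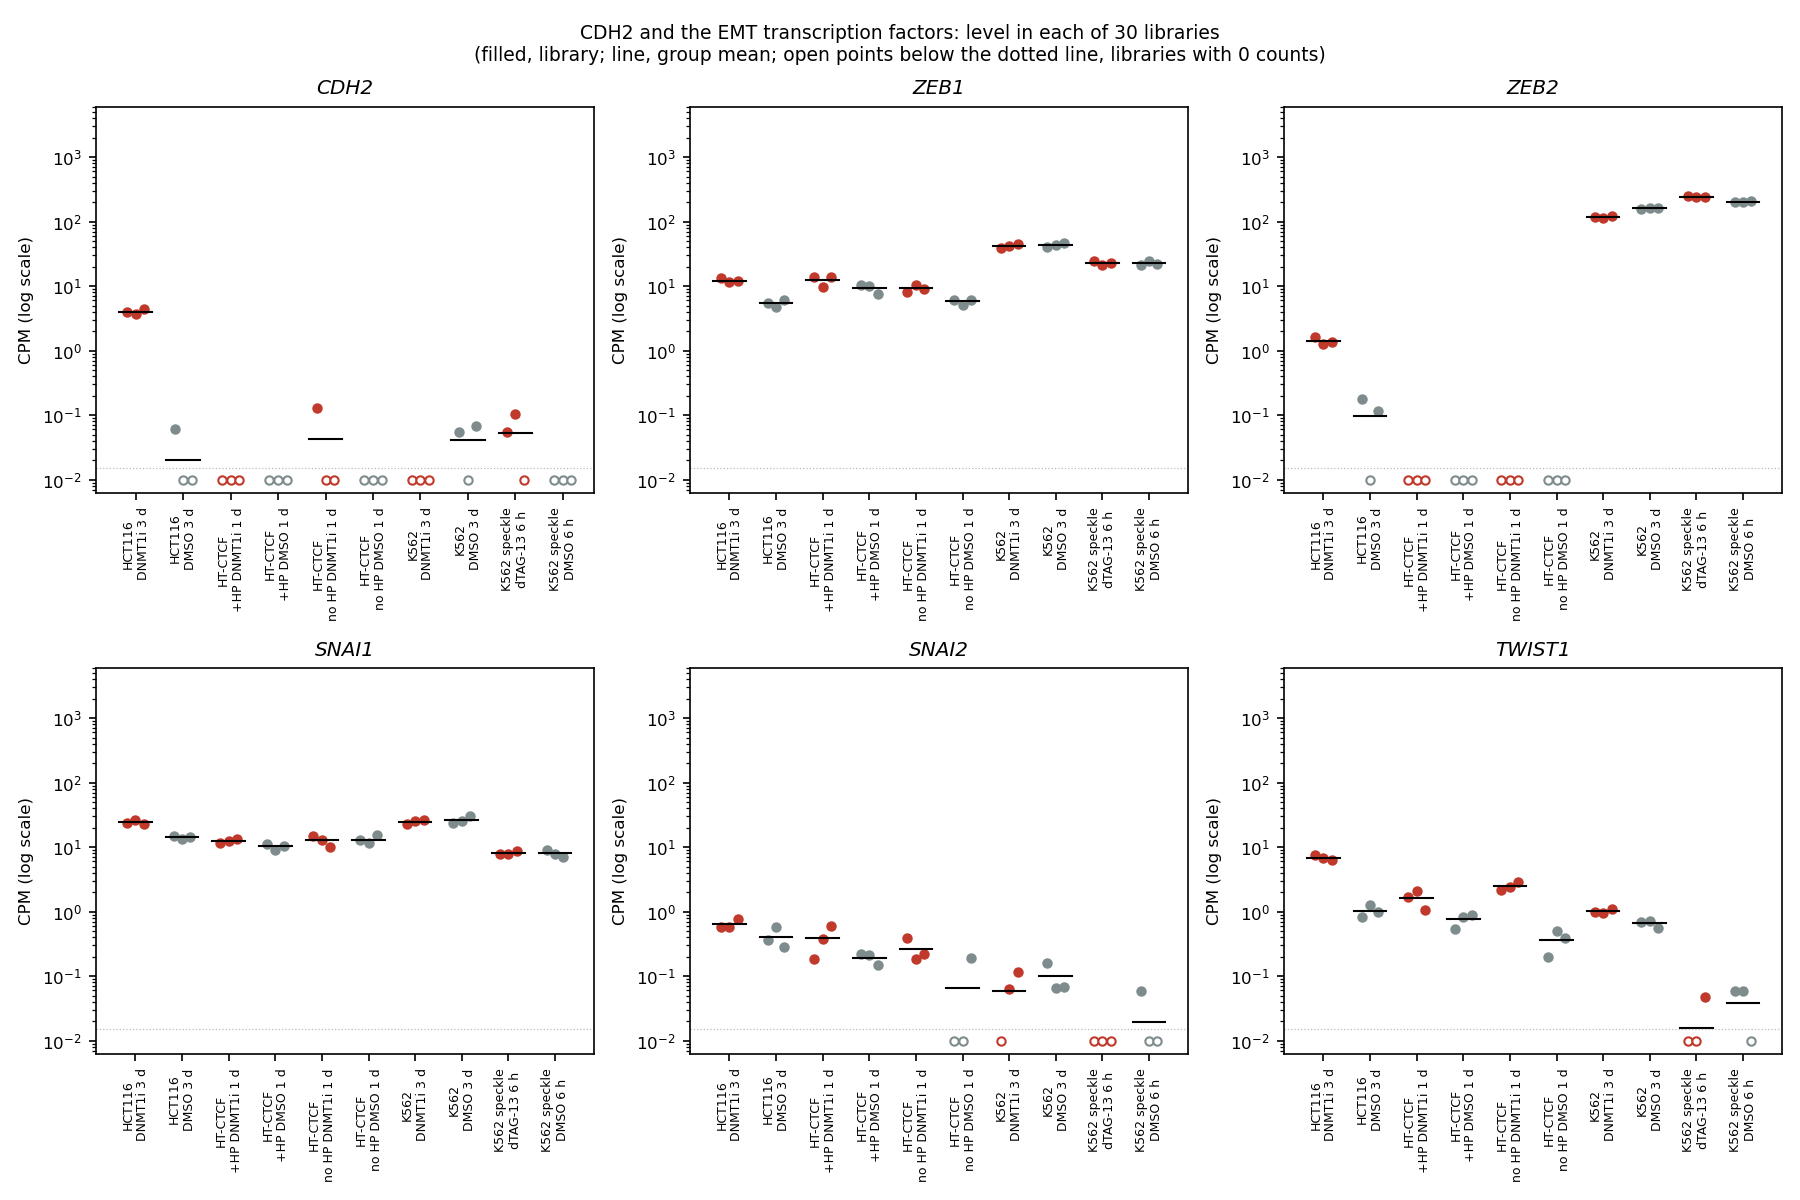
Level of CDH2, ZEB1, ZEB2, SNAI1, SNAI2 and TWIST1 in CPM (log axis) in each of the 30 libraries, 1 point per library and a bar at the mean of each group of 3; libraries with 0 counts are drawn at the bottom. ZEB2 is at 115 CPM or more in all 12 K562 libraries and at 0 in all 12 HT-CTCF libraries, and CDH2 is above 1 CPM in HCT116 cells under DNMT1i alone.

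Other genes of the pathway moved in both directions in HCT116 cells. Their lists were chosen for known function, but with earlier results of these data known. Of 17 other EMT transcription factors tested, 14 rose and 1 fell, among them TBX2 (log2 fold change 4.77 ± 0.25), ETS1 (1.47 ± 0.09) and KLF8 (2.04 ± 0.19), with a list median of 1.23. FOXF2, a forkhead factor of mesenchyme, had 115 counts with DNMT1i and 1 with DMSO (ratio 98.9, 95% counting interval 17.4 to 3939). Of 40 mesenchymal effector genes, 26 rose and 7 fell (list median 0.35). The matrix gene THBS2 (7.40 ± 0.18), the TGF-beta co-receptor ENG (6.90 ± 0.33) and IGFBP3 (3.40 ± 0.17) rose on the log2 scale, whereas CAV1, the main protein of caveolae, fell by 1.65 ± 0.07.

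Of 38 epithelial genes tested, of the kind that EMT factors are known to repress, 5 rose and 18 fell (list median log2 fold change -0.22). GRHL2 and ELF3, transcription factors of epithelial cells, had log2 fold changes of -1.62 ± 0.09 and -1.58 ± 0.10. The tight junction gene TJP3 changed by -1.65 ± 0.10 and the epithelial splicing factor ESRP1 by -1.23 ± 0.09. CDH1 itself fell by 0.63 ± 0.08 on the log2 scale, at 111 CPM with DNMT1i and 176 CPM with DMSO (adjusted p = 5.9e-07). MIR200CHG, the host transcript of the microRNAs miR-200c and miR-141 that target ZEB1 and ZEB2, fell by 1.04 ± 0.34, at 0.430 CPM with DNMT1i and 0.908 CPM with DMSO (adjusted p = 0.012).

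Relatives and partners of the structural members also changed. Of 7 vimentin-related intermediate filament genes tested, 5 rose and 1 fell. The neuronal filament genes NEFH and INA had 1730 and 1093 counts with DNMT1i and 1 count each with DMSO, ratios of 1488 (95% counting interval 267 to 58792) and 939.9 (168 to 37157), while DES and NES rose by 2.51 ± 0.15 and 2.0 ± 0.12 on the log2 scale. Of 5 SPARC family genes, 4 rose and 1 fell, among them SPOCK1 (4.48 ± 0.30), SPOCK2 (3.68 ± 0.40) and FSTL1 (1.06 ± 0.08), while SPARCL1 had 64 counts with DNMT1i and 2 with DMSO (ratio 27.5, interval 7.31 to 232). Of 28 basement membrane genes and nidogen partners, 13 rose and 5 fell.

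FBLN2, whose product binds nidogen, rose by 8.41 ± 0.24 on the log2 scale, and the laminin chains LAMA2 and LAMA3 by 1.72 ± 0.12 and 1.34 ± 0.09. NID2, the paralog of NID1, had 240 counts with DNMT1i and 1 with DMSO (ratio 206, 95% counting interval 36.7 to 8185). Of 34 TGF-beta and BMP signalling genes, 19 rose and 3 fell, with LTBP2 at 2.33 ± 0.15, ID4 at 3.25 ± 0.24, TGFBR3 at 1.5 ± 0.11 and BMPR2 at 1.11 ± 0.08 (log2 fold changes). Of 5 genes tested in the galectin list, which includes genes related to galectins, 2 rose. These were LGALSL, by 0.62 ± 0.09 on the log2 scale, and LGALS4, with 67 counts with DNMT1i and 2 with DMSO (ratio 28.8, interval 7.67 to 243). CDH15 (1.40 ± 0.17) was the only one of 3 classical cadherins tested that passed. These counts are descriptions, to be read against the 33.8% of all genes that rose and the 27.9% that fell.

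**Figure D3:**
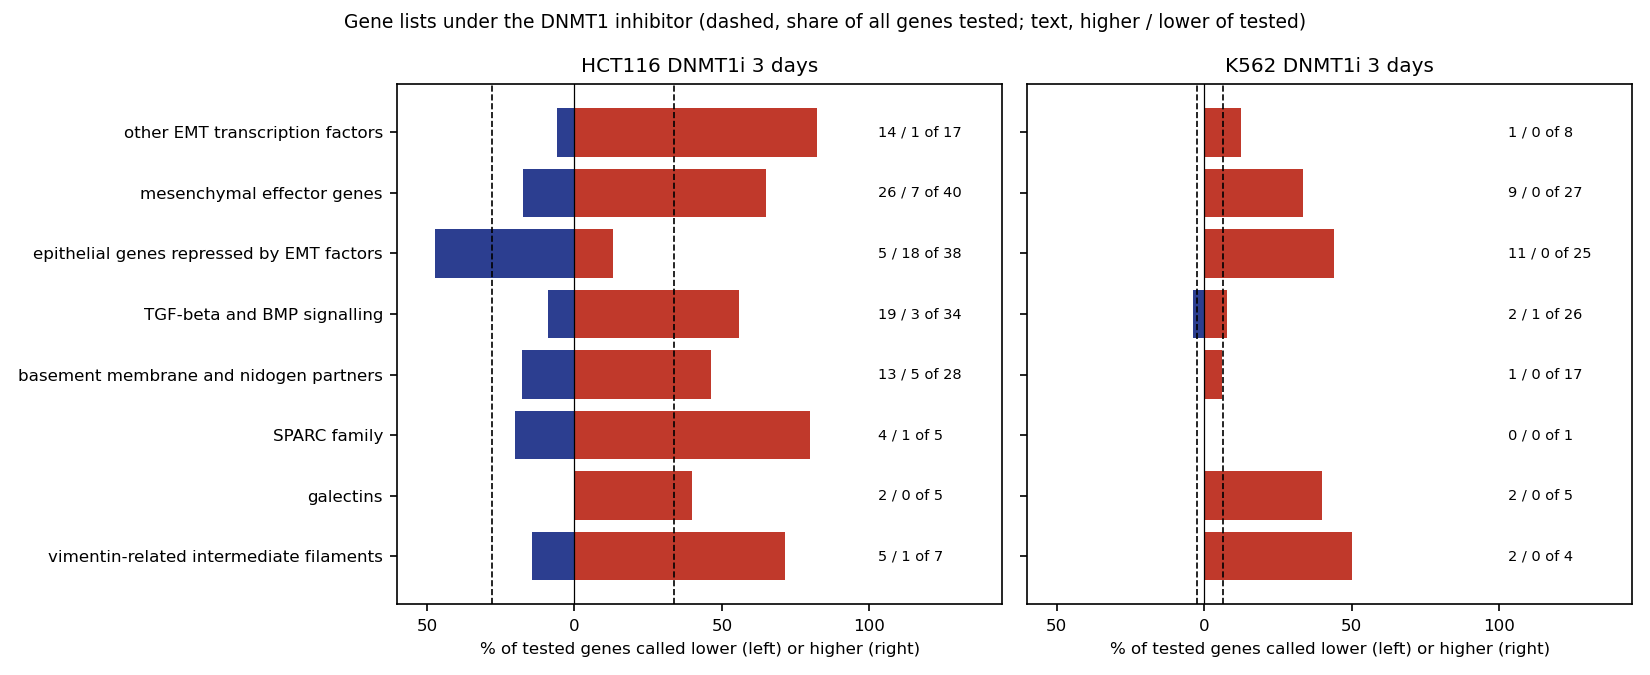
Percent of the tested genes of each list that were higher (to the right) or lower (to the left) with DNMT1i in HCT116 and in K562 cells at 3 days, with dashed lines at the percent over all genes tested (33.8 and 27.9 in HCT116, 6.47 and 2.38 in K562). In HCT116 cells, 14 of 17 other EMT transcription factors are higher and 18 of 38 epithelial genes are lower; in K562 cells, 11 of 25 epithelial genes are higher and none is lower with all 6 libraries.

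Markers of cell types that express these genes strongly moved in HCT116 cells as well. The summed level of 10 fibroblast markers was 25.1 to 34.4 CPM in DNMT1i libraries and 9.54 to 12.1 CPM in DMSO libraries, and 3 of 3 tested rose: COL1A1 (log2 fold change 1.29 ± 0.13), PDGFRB (1.75 ± 0.42) and THY1 (164 counts against 1). LUM was at 0 in all 3 DNMT1i libraries, and only 2 of the 10 markers averaged 1 CPM or more there. The summed level of 8 endothelial and blood-cell markers was 9.07 to 11.4 CPM with DNMT1i and 1.26 to 2.28 CPM with DMSO, and 4 of 4 tested rose. The 10 K562 markers summed to 4.17 to 4.44 CPM with DNMT1i and 3.56 to 5.28 CPM with DMSO, so the ranges overlapped. The 10 HCT116 markers summed to 3556 to 4207 CPM with DNMT1i and 4093 to 4207 CPM with DMSO. Of the 7 HCT116 markers tested, 3 rose and 3 fell, where 33.8% of all genes rose and 27.9% fell. The part of these markers in the results was not tested.

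Counts per exon bin, which split each gene into its non-overlapping exon parts, showed where along the genes the reads lay. NID1 had reads in 21 of 21 bins in HCT116 DNMT1i libraries (2814 bin counts) and in 0 of 21 in DMSO libraries, so the reads lay along the whole annotated gene. SPARC had reads in 26 of 28 bins with DNMT1i and in 18 of 28 with DMSO, and CDH2 in 28 of 44 bins with DNMT1i and in 1 with DMSO. For VIM, bins 5 to 9 from the 5′ end held 18.7%, 22.4% and 21.3% of the bin counts in DNMT1i libraries, against 11.6%, 14.0% and 12.8% in DMSO libraries. These shares did not overlap, but the DMSO libraries held 337 to 351 VIM bin counts each, and the difference was not tested. The share also varied between replicates of the same group. It was 21.0% to 27.9% in K562 DMSO libraries and 25.4% to 35.3% in speckle dTAG-13 libraries. VIM overlaps the antisense gene VIM-AS1, which rose too (1.22 CPM with DNMT1i and 0.346 CPM with DMSO, log2 fold change 1.82 ± 0.36), and since no source used here says whether counting used strand, reads of such pairs may be mixed.

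**Figure D4:**
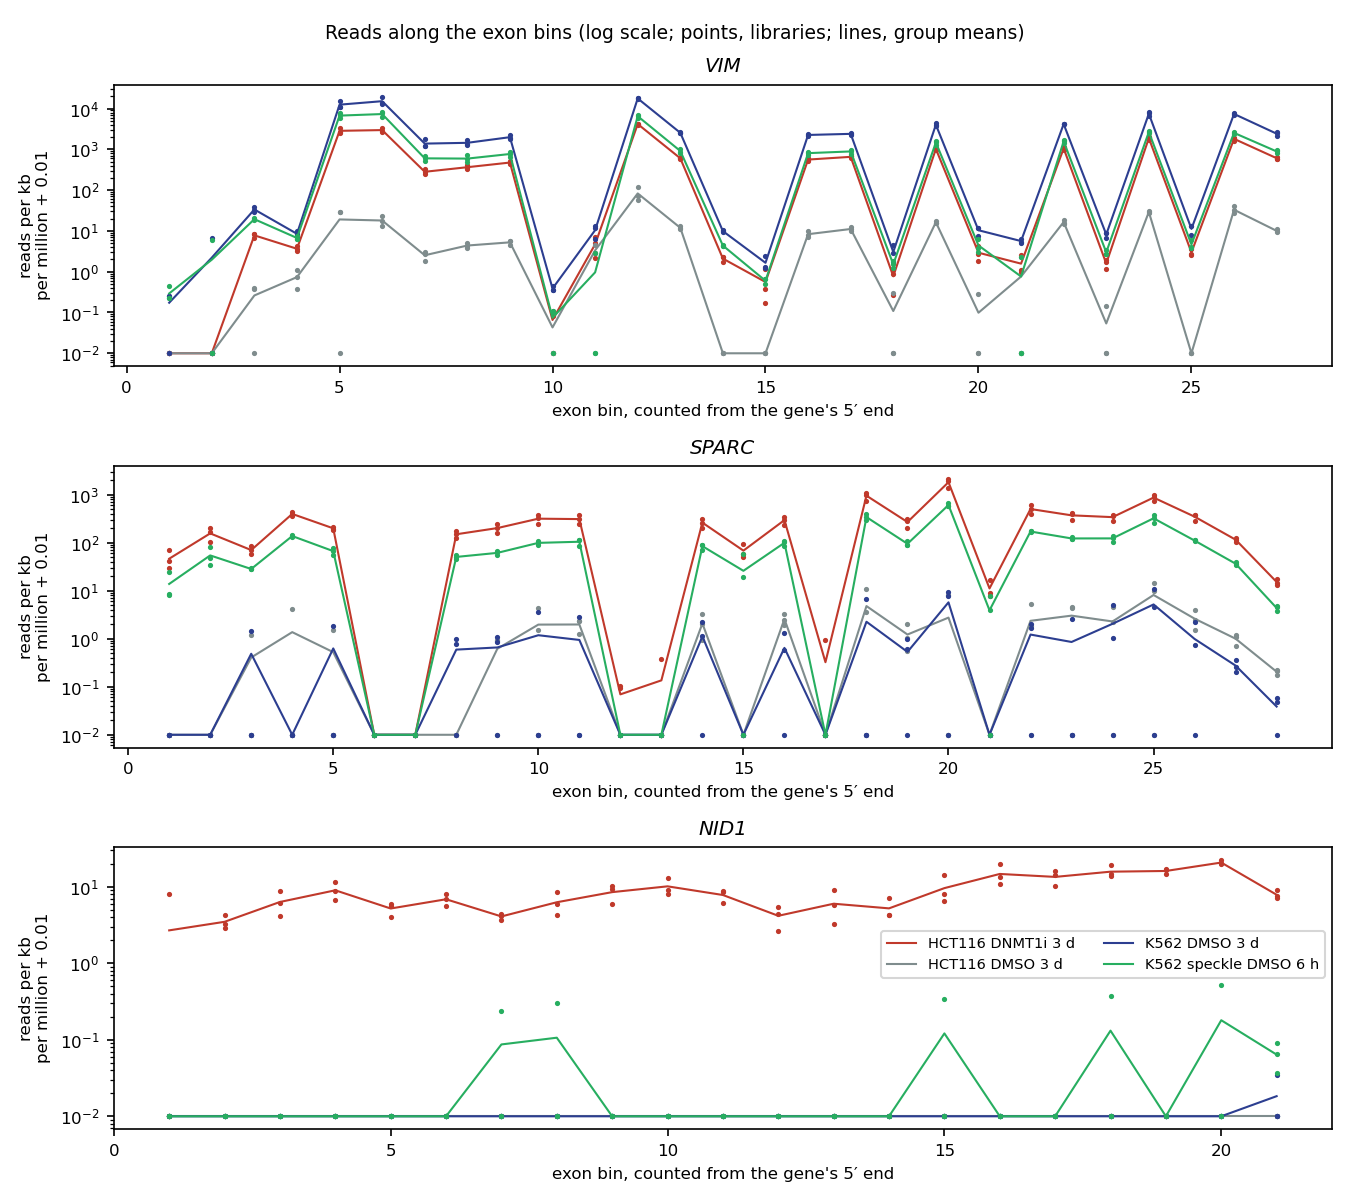
Depth-scaled reads per kilobase of bin (log axis, with a small constant added) for the exon bins of VIM, SPARC and NID1, ordered from the 5′ end of the gene, with points for libraries and lines for group means, in HCT116 DNMT1i, HCT116 DMSO, K562 DMSO and K562 speckle DMSO libraries. NID1 has reads in all 21 bins in HCT116 DNMT1i cells and in none in HCT116 DMSO cells.

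In K562 cells, the same treatment changed 2 of the members: LGALS1 rose and ZEB2 fell. Of the 10, 6 had enough counts to be tested, and 1 rose, 1 fell and 4 did not pass, with a median log2 fold change of -0.06. Of all 13726 genes tested, 8.84% passed, 6.47% higher and 2.38% lower. ZEB2 was at 118, 115 and 121 CPM in DNMT1i libraries, against 156, 165 and 163 CPM in DMSO libraries, with no overlap (log2 fold change -0.44 ± 0.08, adjusted p = 0.00475). LGALS1 was at 153, 191 and 155 CPM with DNMT1i, against 95.8, 96.8 and 137 CPM with DMSO (log2 fold change 0.61 ± 0.16, adjusted p = 0.0359). The LGALS1 groups did not overlap, but its call was lost without any of the 3 DNMT1i libraries, without DMSO replicate 1 and without DMSO replicate 2, with adjusted p from 0.0726 to 0.166. Without DMSO replicate 3, the library at 137 CPM, LGALS1 rose by 0.81 ± 0.09 on the log2 scale (adjusted p = 2.14e-05) and ZEB2 fell by 0.42 ± 0.06 (adjusted p = 0.000226). The share of all genes that passed was then 24.1% of 14249 (13.6% higher, 10.5% lower), so the count over all genes depended strongly on this 1 library.

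VIM, high in K562 before treatment, was at 2404, 2581 and 2389 CPM with DNMT1i, against 2688, 2634 and 2969 CPM with DMSO. The treated libraries were all below the controls, but the difference did not pass the test (log2 fold change -0.16 ± 0.08, adjusted p = 0.271, 95% interval -0.34 to 0.02). ZEB1 (42.2 ± 3.18 CPM with DNMT1i, 43.7 ± 3.45 CPM with DMSO) and SNAI1 (24.9 ± 1.95 CPM with DNMT1i, 26.3 ± 3.26 CPM with DMSO) overlapped between groups, with adjusted p of 0.871 and 0.817 by edgeR. TWIST1 was at 0.985, 0.958 and 1.09 CPM with DNMT1i, against 0.7, 0.725 and 0.548 CPM with DMSO, and did not pass (log2 fold change 0.62 ± 0.28, adjusted p = 0.228). Without DMSO replicate 3 these 4 genes did not pass either, with adjusted p of 0.195 for VIM (log2 fold change -0.10 ± 0.05), 0.839 for ZEB1, 0.763 for SNAI1 and 0.267 for TWIST1 by edgeR. SPARC, NID1, CDH2 and SNAI2 were too low to be tested: SPARC had 20 counts in DNMT1i libraries and 29 in DMSO libraries, SNAI2 had 3 with DNMT1i and 5 with DMSO, and NID1 and CDH2 were at or under 3 counts in both groups.

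In K562 cells, 11 of 25 listed epithelial genes tested rose, none fell and 14 did not pass, where 6.47% of all genes rose. Without DMSO replicate 3, 15 rose and 1 fell, against 13.6% and 10.5% of all genes. Those that rose include SPINT2, an inhibitor of epithelial serine proteases (log2 fold change 5.30 ± 0.18), the splicing factor ESRP2 (5.57 ± 0.41) and CDH1 (4.58 ± 0.23). CDH1 averaged 8.06 CPM with DNMT1i and 0.331 CPM with DMSO in K562 cells, whereas it fell in HCT116 cells. Of 27 mesenchymal effector genes, 9 rose and none fell (9 and 1 without DMSO replicate 3), with S100A6 (2.50 ± 0.18), MMP14 (1.92 ± 0.18) and TPM2 (1.76 ± 0.17) as examples. Of 8 other EMT transcription factors, RUNX2 alone passed (1.25 ± 0.15), and 3 rose without DMSO replicate 3. Among the filament genes NES (1.83 ± 0.10) and DES (0.99 ± 0.23) rose, and 3 rose without DMSO replicate 3. In the galectin list LGALS3BP (1.52 ± 0.17) and LGALS3 (1.47 ± 0.19) rose, and the count was also 2 without that library. LGALS3BP encodes a galectin-binding protein and not a galectin.

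Of 26 TGF-beta and BMP signalling genes tested in K562 cells, the BMP targets ID3 (log2 fold change 1.74 ± 0.19) and ID1 (0.95 ± 0.24) rose and the receptor TGFBR1 fell by 0.38 ± 0.11. Without DMSO replicate 3, 4 of 27 rose and 2 fell. Of 17 basement membrane genes, AGRN alone passed (0.45 ± 0.12), and 3 of 18 rose without that library. Of all genes, 6.47% rose and 2.38% fell with all libraries, and 13.6% and 10.5% without DMSO replicate 3. The counts that rose in these lists were thus near the share over all genes. None of 10 fibroblast markers passed in K562 cells, where 1 was tested, and their summed level was 3.56 to 4.73 CPM with DNMT1i and 2.57 to 2.86 CPM with DMSO. Of the endothelial and blood-cell markers 5 were tested, and 4 rose and 1 fell (PTPRC, the leukocyte antigen CD45, by 0.66 ± 0.09 on the log2 scale, at 151 CPM with DNMT1i and 239 CPM with DMSO).

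**Figure D5:**
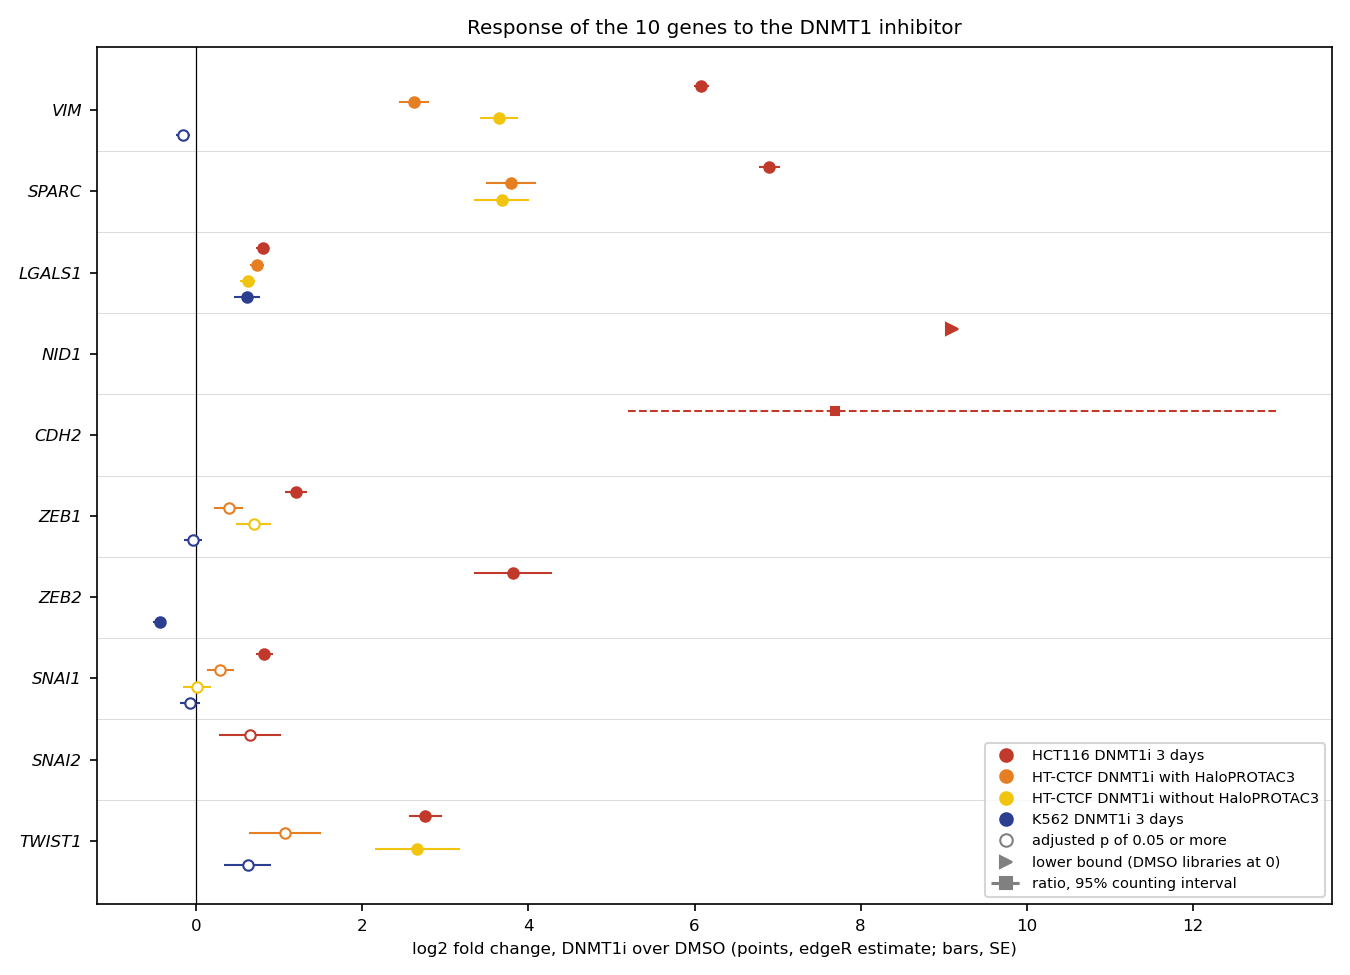
Log2 fold change of DNMT1i over DMSO for each member in HCT116 (3 days), K562 (3 days) and HT-CTCF cells (1 day) with and without HaloPROTAC3, with bars of 1 SE and open circles where the adjusted p was 0.05 or more. NID1 in HCT116 is drawn as a lower bound and CDH2 as a ratio with its 95% counting interval, and members with too few counts have no point. VIM and SPARC stand above 2.5 in the 3 comparisons of HCT116 background, and VIM in K562 is at -0.16.

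The responses of the lines were set against each other by fitting all 12 wild-type libraries together. For 8 of the 10 members the response in HCT116 exceeded that in K562, against 15.7% of all 17237 genes tested (29.8% in either direction). The difference in log2 fold change (HCT116 minus K562) was 6.24 ± 0.12 for VIM (adjusted p = 2.43e-17), 7.50 ± 0.52 for SPARC (adjusted p = 1.87e-09) and 4.24 ± 0.39 for ZEB2 (adjusted p = 1.25e-07). It was smaller for TWIST1 (2.14 ± 0.37, adjusted p = 0.000219), ZEB1 (1.24 ± 0.16, adjusted p = 1.04e-05) and SNAI1 (0.88 ± 0.16, adjusted p = 0.000348). The SNAI1 difference is uncertain, because reads of the pseudogene SNAI1P1 may be mixed into the HCT116 DNMT1i value. NID1 and CDH2 passed as well, with adjusted p of 0.00505 and 0.00216 by edgeR, but their sizes rest on control groups of 0 to 2 counts and are not given, and the NID1 call was lost without K562 DMSO replicate 1 (adjusted p = 1). NID1 and CDH2 were tested only through their HCT116 DNMT1i counts, so only a higher response in HCT116 could be called for them. Without K562 DMSO replicate 3, the same count of 8 passed, with VIM at 6.17 ± 0.11, SPARC at 7.55 ± 0.64, ZEB2 at 4.22 ± 0.41, TWIST1 at 2.23 ± 0.43, ZEB1 at 1.17 ± 0.16 and SNAI1 at 0.77 ± 0.15, against 18.3% of all genes.

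For LGALS1 the difference between the lines did not pass the test: it was 0.19 ± 0.18 on the log2 scale, with a 95% interval of -0.19 to 0.57 (adjusted p = 0.485). An interval of this width leaves room for a difference of up to 0.57, so equal responses are not shown. SNAI2 did not pass either (1.39 ± 1.0, adjusted p = 0.328, 95% interval -0.70 to 3.47). Without K562 DMSO replicate 3, the difference was -0.01 ± 0.13 for LGALS1 (adjusted p = 0.999) and 1.57 ± 1.12 for SNAI2 (adjusted p = 0.302). Of 38 epithelial genes tested for the same difference, 13 had the lower response in HCT116 and none the higher (14 and 2 without that library). Of all genes tested, 14.1% had the lower and 15.7% the higher response in HCT116 (17.3% and 18.3% without that library).

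HT-CTCF cells showed part of the HCT116 response after 1 day. Without HaloPROTAC3, DNMT1i raised VIM, SPARC, TWIST1 and LGALS1. Of the 10 members, 6 could be tested at the lower depth of these libraries, and 4 rose and none fell, against 2.48% of 12690 genes that passed (1.98% higher, 0.504% lower). SPARC and TWIST1 held only 11 and 6 counts with DMSO and were tested through their DNMT1i counts, so they could only be called higher. VIM was at 21, 19.5 and 22.6 CPM with DNMT1i, against 1.21, 1.49 and 2.33 CPM with DMSO (log2 fold change 3.65 ± 0.23, adjusted p = 1.7e-12). SPARC was at 9.43, 6.39 and 11.1 CPM with DNMT1i, against 0.603, 0.661 and 0.776 CPM with DMSO (log2 fold change 3.68 ± 0.33, adjusted p = 7.41e-09). Both genes were clear of their controls in every library, at levels that rested on 372 VIM and 158 SPARC counts with DNMT1i and on 27 and 11 counts with DMSO.

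LGALS1 was at 148, 152 and 166 CPM with DNMT1i, against 91.7, 105 and 108 CPM with DMSO (log2 fold change 0.62 ± 0.09, adjusted p = 3.21e-05). TWIST1 was at 2.2, 2.37 and 2.88 CPM with DNMT1i, against 0.201, 0.495 and 0.388 CPM with DMSO (log2 fold change 2.66 ± 0.51, adjusted p = 0.00194), resting on 43 counts with DNMT1i and 6 with DMSO. ZEB1 was at 8.26, 10.6 and 9.09 CPM with DNMT1i, against 6.03, 5.12 and 6.21 CPM with DMSO. Its groups did not overlap, yet it did not pass (log2 fold change 0.69 ± 0.21, adjusted p = 0.0758), and SNAI1 was near 0 change (0.01 ± 0.17, adjusted p = 0.984, 95% interval -0.33 to 0.35). ZEB2 had 0 counts in all 12 HT-CTCF libraries, CDH2 had 1 count over all 12, and NID1 had 3 counts with DNMT1i and 0 with DMSO, at the floor. At these depths 3 counts over a group correspond to 0.118 to 0.185 CPM, so lower levels were not detectable.

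With HaloPROTAC3 present, VIM, SPARC and LGALS1 again rose with DNMT1i, and 5.41% of all genes passed (2.86% higher, 2.55% lower). SPARC held 16 counts with DMSO here and was again tested through its DNMT1i counts, so it could only be called higher. VIM was at 21, 15.7 and 23.6 CPM with DNMT1i, against 3.71, 3.13 and 2.98 CPM with DMSO (log2 fold change 2.62 ± 0.18, adjusted p = 2.05e-11). SPARC was at 9.18, 8.62 and 8.81 CPM with DNMT1i, against 0.654, 0.626 and 0.596 CPM with DMSO (log2 fold change 3.79 ± 0.30, adjusted p = 3.07e-10). LGALS1 was at 259, 239.7 and 206 CPM with DNMT1i, against 142, 132 and 153 CPM with DMSO (log2 fold change 0.73 ± 0.08, adjusted p = 9.4e-07). No library of these genes overlapped between DNMT1i and DMSO. TWIST1 (1.62 ± 0.525 CPM with DNMT1i, 0.758 ± 0.187 CPM with DMSO), ZEB1 and SNAI1 did not pass, with log2 fold changes of 1.07 ± 0.43, 0.39 ± 0.17 and 0.29 ± 0.16 and adjusted p of 0.148, 0.181 and 0.329 by edgeR.

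Whether HaloPROTAC3 changed the DNMT1i response was tested as an interaction, and none of the 6 members passed (0.268% of all genes did, 0.0552% higher and 0.213% lower). By unadjusted p below 0.05, 2 of the 6 were past the threshold, as were 14.1% of all genes: VIM (interaction -1.03 ± 0.35 on the log2 scale, unadjusted p = 0.0059, adjusted p = 0.174), and TWIST1 (interaction -1.59 ± 0.72, unadjusted p = 0.0343, adjusted p = 0.313). For SPARC the interaction was 0.10 ± 0.57, with a 95% interval of -1.06 to 1.27. The treated VIM levels with and without HaloPROTAC3 overlapped (20.1 ± 4.0 CPM with, 21.1 ± 1.54 CPM without), and the DMSO levels did not (3.27 ± 0.384 CPM with, 1.67 ± 0.583 CPM without). Of the listed genes, HSPG2 (perlecan, a basement membrane proteoglycan) and AGRN (agrin) passed the interaction, at -1.0 ± 0.20 and -0.62 ± 0.14. DESeq2, run beside edgeR, called none of the 6 members either.

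HaloPROTAC3 by itself, in DMSO, raised VIM, ZEB1 and LGALS1 modestly, among 17.3% of all genes that passed (10.1% higher, 7.28% lower). LGALS1 rose by 0.48 ± 0.09 on the log2 scale (142 ± 10.6 CPM with HaloPROTAC3, 101 ± 8.51 CPM without, adjusted p = 0.00017). ZEB1 was at 10.6, 10 and 7.45 CPM with HaloPROTAC3, against 6.03, 5.12 and 6.21 CPM without (log2 fold change 0.71 ± 0.20, adjusted p = 0.0122). VIM rose by 0.96 ± 0.31 (adjusted p = 0.0307), resting on 84 counts with HaloPROTAC3 and 27 without. The VIM call was lost when replicate 1 or 2 of either group was left out (adjusted p = 0.0501 to 0.126), and the ZEB1 call without HaloPROTAC3 replicate 1 (adjusted p = 0.0627) or replicate 2 of the cells without it (adjusted p = 0.0813). SPARC, SNAI1 and TWIST1 did not pass (log2 fold changes -0.12 ± 0.54, -0.36 ± 0.16 and 0.97 ± 0.62).

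Under DNMT1i, HaloPROTAC3 changed LGALS1 alone of the 6 members (235 ± 26.9 CPM with, 155 ± 9.24 CPM without, log2 fold change 0.59 ± 0.08, adjusted p = 3.79e-06), while 22.4% of all genes passed (12.2% higher, 10.1% lower). VIM (-0.06 ± 0.15) and SPARC (-0.02 ± 0.20) had adjusted p of 0.799 and 0.966 by edgeR, with 95% intervals of -0.36 to 0.23 and -0.43 to 0.39. ZEB1 (0.41 ± 0.18, adjusted p = 0.104) passed when HaloPROTAC3 DNMT1i replicate 2 was left out (adjusted p = 0.046).

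Among the listed genes in HT-CTCF cells without HaloPROTAC3, where 1.98% of all genes rose and 0.504% fell, 6 of 22 basement membrane genes and nidogen partners rose and none fell, with the integrin chain ITGB4 (log2 fold change 0.56 ± 0.08) and the laminin chain LAMB1 (0.51 ± 0.09) as examples. Of the other EMT transcription factors, 1 of 10 rose with DNMT1i (FOXC1, log2 fold change 0.59 ± 0.10). Of 29 mesenchymal effector genes, 1 rose and 2 fell, the caveolins CAV1 (-0.36 ± 0.07) and CAV2 (-0.46 ± 0.08). Of 32 TGF-beta and BMP signalling genes, GDF15 (0.60 ± 0.10) rose and BMP4 (-0.34 ± 0.08) fell. Of 37 epithelial genes, CLDN3 (0.81 ± 0.20), CLDN4 (0.42 ± 0.09), ELF3 (0.57 ± 0.13) and JUP (0.33 ± 0.08) rose and none fell. ELF3 and CLDN4 thus changed in the opposite direction to HCT116 cells at 3 days, where CLDN4 averaged 45.6 CPM with DNMT1i and 102 CPM with DMSO. With HaloPROTAC3, 2 of the other EMT factors (FOXC1, 0.47 ± 0.09, and PAX6, 0.87 ± 0.25), 6 of 29 mesenchymal effectors and 1 of 37 epithelial genes (ELF3, 0.52 ± 0.13) rose, while 2 of the effectors and 1 epithelial gene (DSP, -0.34 ± 0.08) fell. Of the 22 basement membrane genes, 2 then rose, among them LAMB1 (0.31 ± 0.08), and 3 fell, namely LAMC1 (-0.34 ± 0.08), HSPG2 (-0.51 ± 0.13) and COL4A4 (-0.40 ± 0.11), where 2.86% of all genes rose and 2.55% fell. The fibroblast markers summed to 15.3 to 19.2 CPM with DNMT1i and 12.2 to 14.7 CPM with DMSO without HaloPROTAC3, and to 22.6 to 28.5 CPM with DNMT1i and 16.3 to 19.1 CPM with DMSO in its presence, and their part in the VIM and SPARC values was not tested.

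The response of wild-type HCT116 cells at 3 days was larger than that of HT-CTCF cells at 1 day without HaloPROTAC3 for VIM, SPARC and SNAI1. The difference in log2 fold change was 2.43 ± 0.32 for VIM (adjusted p = 1.2e-06), 3.20 ± 0.64 for SPARC (adjusted p = 0.000282) and 0.81 ± 0.20 for SNAI1 (adjusted p = 0.00231), and 30.7% of 15782 genes passed (14.8% higher, 15.9% lower). The SNAI1 difference is uncertain, since the pseudogene SNAI1P1 had 1657 counts in HCT116 DNMT1i libraries and 0 in these HT-CTCF libraries. LGALS1 (0.18 ± 0.12, adjusted p = 0.266), ZEB1 (0.51 ± 0.24, adjusted p = 0.112) and TWIST1 (0.07 ± 0.93, adjusted p = 0.992) did not pass by edgeR, and the TWIST1 interval, -1.83 to 1.96, excludes little. NID1, CDH2 and ZEB2 gave no estimate and SNAI2 was too low to be tested, with 0 to 5 counts per group in the HT-CTCF libraries compared. Time, clone, CTCF tag, library batch, read length and sequencing depth all differ between these cells and cannot be told apart.

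Depletion of SON and SRRM2 for 6 hours in K562 speckle cells moved none of these genes past the main test, which did not use the replicate number. With the replicate number as a block, ZEB2 and VIM passed. Of the 10 members, 6 could be tested and none passed the main test, whereas 4.67% of all 14104 genes did (1.57% higher, 3.09% lower). ZEB2 was at 247, 239.6 and 243 CPM with dTAG-13, against 201, 202 and 209 CPM with DMSO, with no overlap between groups (log2 fold change 0.21 ± 0.05, adjusted p = 0.0539). VIM was at 1167, 1172 and 1259.7 CPM with dTAG-13, against 1054, 999 and 1091 CPM with DMSO, also without overlap (log2 fold change 0.16 ± 0.06, adjusted p = 0.182). By unadjusted p below 0.05 these 2 were past the threshold (0.00269 for ZEB2 and 0.0244 for VIM), as were 19% of all genes. Same-numbered libraries deviated together here, but so did dTAG-13 replicate 1 and DMSO replicate 2, so pairing by number is uncertain. With the replicate number as a block both genes rose (adjusted p = 0.00101 for ZEB2 and 0.0106 for VIM), while the share of all genes that passed was then 21.7% (8.33% higher, 13.4% lower).

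SPARC was at 79, 77.2 and 79.9 CPM with dTAG-13, against 75.7, 77.2 and 75.6 CPM with DMSO (log2 fold change 0.01 ± 0.06, adjusted p = 0.952, 95% interval -0.13 to 0.15). LGALS1 (0.05 ± 0.09), ZEB1 (-0.02 ± 0.09) and SNAI1 (-0.03 ± 0.13) had adjusted p of 0.788, 0.911 and 0.936 by edgeR. NID1 had 12 counts with dTAG-13 and 9 with DMSO, and CDH2, SNAI2 and TWIST1 were at or under 3 counts in both groups, so none of these 4 could be tested. Among the listed mesenchymal effector genes, ITGA5, the fibronectin receptor chain, fell by 0.51 ± 0.08 and FN1, fibronectin itself, rose by 0.40 ± 0.07 on the log2 scale. SPARC set the speckle clone apart from its parent line: its 6 libraries had 75.6 to 79.9 CPM, whereas the 6 wild-type K562 libraries had 0.128 to 0.659 CPM. VIM (999 to 1259.7 CPM) and ZEB1 (21.2 to 24.8 CPM) were lower there than in the wild-type K562 libraries (2389 to 2969 CPM and 39.2 to 47.2 CPM), and ZEB2 was higher (201 to 247 CPM, against 115 to 165 CPM). Clone, tags, compound and time of treatment (6 hours in the speckle cells, 3 days in wild-type cells) differ together between these cells, so their shares in these levels cannot be told apart, and no test was made.

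Across all 10 groups, the members fell into different orders of level. VIM ran in descending order through K562 (DMSO 2764 CPM), the speckle clone, HCT116 with DNMT1i (647 CPM), HT-CTCF with DNMT1i and the DMSO groups of HCT116 background, and the only neighbours that overlapped were the HT-CTCF DNMT1i groups with and without HaloPROTAC3. SPARC was highest in HCT116 with DNMT1i (234 CPM), then in the speckle clone, whose groups overlapped, and then in HT-CTCF with DNMT1i, whose groups with and without HaloPROTAC3 overlapped too. In HCT116 with DNMT1i, NID1 (32 CPM) and CDH2 (4.02 CPM) stood apart from all other groups, where every library was below 1 CPM. ZEB2 was at 115 CPM or more in every K562 background library and below 2 CPM in every HCT116 background library. SNAI1 varied least, between group means of 8.01 CPM in the speckle clone with DMSO and 26.3 CPM in K562 with DMSO.

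Over the 10 group means of log2 CPM, VIM correlated with ZEB2 (Pearson r = 0.92) and ZEB1 (r = 0.90), and NID1 with CDH2 (r = 0.94), while VIM and SPARC gave r = 0.35. These values are descriptions over 10 groups that share 2 parental lines. Among 13650 genes averaging at least 1 CPM, the genes most like VIM over the group means were HCLS1 (r = 0.998), CTCFL (r = 0.996) and LINC01694 (r = 0.994). CTCFL, the germline paralog of CTCF, averaged 86.5 CPM in HCT116 with DNMT1i, 0.698 CPM in HCT116 with DMSO and 653 CPM in K562 with DMSO. The genes most like SPARC were LINC02377 (r = 0.938), CCDC144NL-AS1 (r = 0.92) and PRRT3 (r = 0.919), and those most like LGALS1 were BAIAP2L1 (r = 0.993), MTMR3 (r = 0.954) and PINK1 (r = 0.952). The genes most like NID1 were the cancer-testis gene MAGEA11 (r = 0.991), the membrane metalloproteinase MMP16 (r = 0.984) and TAF11L11 (r = 0.974).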

How the data were processed

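Poly(A) RNA-seq libraries of 30 cell cultures were analysed, and groups and replicate numbers come from the sample labels. As the methods and the submitters' notes on processing state, the authors handled unique molecular identifiers with UMI-tools 1.1.1, trimmed with cutadapt 2.7, aligned to hg38 with STAR 2.6.0 and counted with HTSeq. The deposited gene and exon bin values are raw counts per library, not normalized. The strand setting of this counting is not stated in the sources used here. Reads not assigned to a gene (17.1% to 23.6% of each library's total) were left out. Deposited tables of the authors' own comparisons (log2 fold changes and p-values from DESeq2 1.28 in R 4.0.2, with mean normalized counts and scores) were not used, nor were 18 per-sample columns in them. Of 60664 identifiers, 60463 (99.7%) matched GENCODE 44.

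The main test on gene counts was the quasi-likelihood test of edgeR 4.0.16 (TMM scaling, filterByExpr, R 4.3.3) with Benjamini-Hochberg adjustment, in 11 comparisons. K562, HCT116 and speckle libraries were fitted separately, the 12 HT-CTCF libraries together, and differences between lines or times over 12 libraries. Alternatives were RLE and total-count scaling, DESeq2 1.42.0, no filter on low counts, the replicate block and leaving out each library. Scripts were tested on simulated data. The members and the 14 lists (258 of 263 symbols matched) were chosen with earlier results of these data known. In the lists, named genes were up to 4 with the smallest p among those called in HCT116 cells, up to 3 in K562 cells, and all called where 5 or fewer were. Some results that this rule took are not reported here. CDH1 and CLDN4 in HCT116 cells were named after their values were seen. Genes most like VIM, SPARC, LGALS1 and NID1 were the 3 with the highest Pearson r over 10 group means of log2 CPM (offset 0.1). Folds against a group with 0 counts are lower bounds, computed as if that group had held 3 counts. Where it had 1 to 3, the ratio has a 95% counting interval. Unique molecular identifiers remove amplification copies, and such intervals and floors cover counting error only. In the speckle libraries, same-numbered replicates deviated together (r = 0.176 to 0.736, every pair above 0.1). Some different-numbered pairs did so too: dTAG-13 replicate 1 with DMSO replicate 2 (r = 0.597), and dTAG-13 replicate 2 with DMSO replicate 1 (r = 0.117). Pairing by number is thus uncertain for replicates 1 and 2, and the speckle results are given without and with the replicate block.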

Additional observations from a re-analysis of the deposited data

Results flagged for a closer look

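The DNMT1i response of 8 members differed between HCT116 and K562 cells by edgeR's test of the difference itself, with all 12 wild-type libraries fitted together. The differences in log2 fold change (HCT116 minus K562) were 6.24 for VIM, 7.50 for SPARC, 4.24 for ZEB2, 2.14 for TWIST1, 1.24 for ZEB1 and 0.88 for SNAI1. The SNAI1 value is uncertain because of possible reads from its pseudogene SNAI1P1. For NID1 and CDH2 the adjusted p was 0.00505 and 0.00216, and no size is given because control groups held 0 to 2 counts. Both were tested only through their HCT116 DNMT1i counts, so only a higher response in HCT116 could be called. NID1 lost its call without K562 DMSO replicate 1, which holds the only NID1 count of that group (adjusted p = 1).

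The response at 3 days in wild-type HCT116 cells differed from that at 1 day in HT-CTCF cells without HaloPROTAC3 for VIM (2.43), SPARC (3.20) and SNAI1 (0.81), as differences in log2 fold change. Here too the SNAI1 value is uncertain because of SNAI1P1. Time, clone, CTCF tag, library batch, read length and depth cannot be told apart in this comparison.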

How the results depend on the processing

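Of 41 member calls over 11 comparisons, 36 were kept in every alternative, 5 were lost in at least 1, and none of the member results reversed. Of 37 member results that were not called, 34 were called in none and 3 in at least 1. The lost calls were LGALS1 in K562, VIM and ZEB1 with HaloPROTAC3 in DMSO, NID1 in the difference between lines and TWIST1 between lines in DMSO; fewer samples were fitted where a library was left out, and otherwise the cause was not tested. In K562 cells 1 member was called with the replicate block (LGALS1 adjusted p = 0.0575), and 1 to 2 without each library in turn. Leaving out each library gave 1 to 3 called members for HaloPROTAC3 in DMSO and 1 to 2 for HaloPROTAC3 under DNMT1i. For dTAG-13, 1 member was called with no filter on low counts (ZEB2, adjusted p = 0.0491) and 2 with the replicate block (VIM and ZEB2). Same-numbered libraries outside the speckle comparison gave r from -0.434 to 0.461 and were not treated as pairs, and the block changed no other member call.

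Total-count scaling moved the balance of higher to lower calls over all genes. It gave 6307 higher and 3265 lower in HCT116 (TMM 5365 and 4426; the median over all genes was 0.13, against 0.02 with TMM), 248 and 502 for DNMT1i with HaloPROTAC3 (363 and 324), 918 and 1505 for HaloPROTAC3 in DMSO (1276 and 924), 940 and 2246 for HaloPROTAC3 under DNMT1i (1551 and 1286), 3106 and 1727 for 3 days against 1 day (2338 and 2511). No member changed its call with it, and 18 of 100 group levels moved by more than 1 SD. The interaction called 7 higher and 27 lower genes by edgeR, 44 and 60 by DESeq2, 6 and 55 with total-count scaling and 24 and 141 with no filter on low counts. With no filter, dTAG-13 gave 524 higher and 643 lower genes (222 and 436 with it), K562 1391 and 508 (888 and 326, and 1941 and 1499 without DMSO replicate 3), and DNMT1i with HaloPROTAC3 297 and 454. The depth of the HT-CTCF libraries limits NID1, CDH2, ZEB2 and SNAI2, which had 0 to 7 counts per group there.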
